A study of Mus musculus with 29 samples.

Results

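C-type lectin and Siglec receptor genes were examined across the lung methylomes of 29 BALB/c mice. Members were the windows of the deposited methylation table whose gene name began with Clec and a digit or with Siglec, and Siglecf was left out. The rule found 155 of the 260686 windows, which carried the names of 34 Clec genes (133 windows) and 5 Siglec genes (22 windows). All 155 windows had a value in every library and all were tested.

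The lungs came from 13-week-old offspring, described as female, and were profiled by whole-genome methyl-sequencing (WGMS), an enzymatic method that reads the share of methylated cytosines. Dams received fine particulate matter (PM) or, as Sham controls, saline by the intranasal route before mating, during gestation and up to weaning. Offspring were either sensitised to ovalbumin (OVA), an egg protein, and challenged with it to induce allergic airway disease, or given saline or PBS in its place. There were 8 libraries of PM-OVA and 7 each of PM, Sham-OVA and Sham, each made from DNA of a lung lobe and hence from a mix of its cell types. According to the paper, these lungs had first undergone lung function tests with methacholine. Its methods describe a saline lavage of the airways right after such tests. No dam or litter is named for a library, so p-values measure the spread between these animals only. The library of Sham replicate 1 goes against the stated sex, since it had a value in 1224 windows of the Y chromosome where the other 28 libraries had 29 to 46. No member lies on a sex chromosome. Without this library 18 member windows rose (11.6%) and 25 fell (16.1%) in Sham offspring. In PM offspring 16 rose (10.3%) and 54 fell (34.8%). Shares of all windows without this library are not given here.

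C-type lectin receptors are surface proteins with a carbohydrate-recognition fold, and many of them sit on macrophages, dendritic cells and neutrophils. The activating members, such as dectin-1 (Clec7a) and Mincle (Clec4e), recognise fungal, bacterial or damaged-cell ligands and signal through the kinase Syk and the adaptor Card9, whereas inhibitory members such as DCIR carry a motif that recruits the phosphatase Ptpn6. Siglecs bind sialic acid on glycoproteins and most of them restrain the cell that carries them. In bulk lung DNA a change in the number of such cells and a change of methylation within a cell cannot be told apart.

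A window spans 50 CpG dinucleotides in most cases, and its value is the percent methylation over the window. The windows of a gene are numbered here in order along the chromosome. They were 244 to 15446 bp long (median 6240 bp), because the CpG density of these loci ranged from 3.61 to 205 CpG per kb (median 8.04). The mean level of a window in unchallenged libraries had a median of 75.8% and a range of 0.317 to 96.1%. Only 9 windows were under 20%, and 118 were at 70% or more. Of the 39 genes, 26 lay on chromosome 6 and accounted for 74 windows.

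The sequences below are those at which the results turn. They show the RefSeq promoter (250 bases before the start to 50 after it, GRCm38.p6) of Clec4e, Clec4a3, Clec5a and Clec12a, which held large falls, of Clec2i, whose start lies in a window that fell under another gene's name, of Clec14a, which rose, and of Clec2l, whose start was nearly unmethylated, for contrast. The last is the stretch of 300 bases with the most CpG in the window that rose most. Clec10a, which also held a large fall, has no entry in the promoter table. Each sequence runs 5′ to 3′ on the strand of its gene and has every CpG in capitals.

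Mincle (Clec4e) promoter, chr6:123289822-123290121, minus strand, 4 CpG: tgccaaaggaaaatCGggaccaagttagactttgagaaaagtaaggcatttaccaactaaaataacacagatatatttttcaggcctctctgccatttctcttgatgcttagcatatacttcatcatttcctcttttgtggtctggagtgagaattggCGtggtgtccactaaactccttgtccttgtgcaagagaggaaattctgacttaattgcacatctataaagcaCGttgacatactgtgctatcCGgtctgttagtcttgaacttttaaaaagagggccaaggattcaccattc
DCIR3 (Clec4a3) promoter, chr6:122952265-122952564, plus strand, 6 CpG: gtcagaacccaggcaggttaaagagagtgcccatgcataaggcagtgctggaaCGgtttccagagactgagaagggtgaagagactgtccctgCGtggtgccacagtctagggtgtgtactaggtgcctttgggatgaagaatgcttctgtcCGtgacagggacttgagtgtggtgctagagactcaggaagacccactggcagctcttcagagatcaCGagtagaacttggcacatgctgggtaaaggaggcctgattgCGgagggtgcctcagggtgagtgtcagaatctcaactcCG
Clec5a promoter, chr6:40585756-40586055, minus strand, 3 CpG: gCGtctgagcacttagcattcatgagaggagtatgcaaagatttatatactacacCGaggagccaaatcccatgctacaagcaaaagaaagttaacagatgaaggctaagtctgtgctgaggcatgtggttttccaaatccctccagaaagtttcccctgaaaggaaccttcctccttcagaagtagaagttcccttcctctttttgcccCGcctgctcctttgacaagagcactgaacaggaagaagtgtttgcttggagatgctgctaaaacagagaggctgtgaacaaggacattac
Clec12a promoter, chr6:129349994-129350293, plus strand, 3 CpG: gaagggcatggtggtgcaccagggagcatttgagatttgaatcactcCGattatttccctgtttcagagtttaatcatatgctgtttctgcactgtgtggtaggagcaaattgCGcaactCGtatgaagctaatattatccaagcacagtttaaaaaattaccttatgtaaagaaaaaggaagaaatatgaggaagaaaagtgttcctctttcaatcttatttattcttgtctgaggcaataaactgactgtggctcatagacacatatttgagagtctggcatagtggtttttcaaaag
Clec2i promoter, chr6:128887337-128887636, plus strand, 4 CpG: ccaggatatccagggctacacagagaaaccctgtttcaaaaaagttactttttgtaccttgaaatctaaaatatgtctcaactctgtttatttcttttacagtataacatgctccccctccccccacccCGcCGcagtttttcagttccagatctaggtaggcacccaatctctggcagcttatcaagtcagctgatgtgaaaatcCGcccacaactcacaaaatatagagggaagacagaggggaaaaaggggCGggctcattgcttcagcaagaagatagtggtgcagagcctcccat
Clec14a promoter, chr12:58269209-58269508, minus strand, 5 CpG: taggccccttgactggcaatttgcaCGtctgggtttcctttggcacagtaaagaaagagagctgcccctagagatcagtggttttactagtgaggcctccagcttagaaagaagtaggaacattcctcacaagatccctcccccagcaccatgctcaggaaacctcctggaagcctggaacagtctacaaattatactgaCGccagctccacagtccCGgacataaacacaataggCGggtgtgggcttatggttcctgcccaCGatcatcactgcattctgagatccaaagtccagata
Clec2l promoter, chr6:38662819-38663118, plus strand, 29 CpG: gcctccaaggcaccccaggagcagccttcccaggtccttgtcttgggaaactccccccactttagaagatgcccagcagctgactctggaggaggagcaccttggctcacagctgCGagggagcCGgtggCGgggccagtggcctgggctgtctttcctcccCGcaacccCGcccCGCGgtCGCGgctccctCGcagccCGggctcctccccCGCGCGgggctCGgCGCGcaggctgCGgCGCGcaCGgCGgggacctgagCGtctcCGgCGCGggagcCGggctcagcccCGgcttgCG
Clec1a intron, chr6:129449884-129450183, minus strand, 7 CpG: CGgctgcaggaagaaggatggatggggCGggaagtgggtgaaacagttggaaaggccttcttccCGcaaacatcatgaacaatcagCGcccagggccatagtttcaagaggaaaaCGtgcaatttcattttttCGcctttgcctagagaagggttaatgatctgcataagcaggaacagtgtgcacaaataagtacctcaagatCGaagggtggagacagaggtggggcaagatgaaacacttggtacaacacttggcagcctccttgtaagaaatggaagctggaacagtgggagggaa

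Most of these promoters held few CpG. Across the 29 member genes whose promoter was in the RefSeq table and could be read here, the median was 3 CpG in 300 bases, against 7 over all 32851 promoters of the table. Clec2l (29 CpG) and Clec16a (25 CpG) had the densest ones. Windows and printed promoters do not coincide, so no value belongs to a printed stretch alone. The start window of Clec2l is shorter than its printed promoter and covers only the end of it.

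The first question was how the lectin windows changed with OVA in each kind of offspring. Differences are given in percentage points of methylation, and the test was limma's moderated test on the log2 of the methylated over the unmethylated percentage (called the log2 ratio below, given ± SE) with p-values adjusted over all 259167 tested windows. A window that differed by 10 points or more with an adjusted p below 0.05 was called a differentially methylated region (DMR). In Sham offspring 1 member window was a DMR, a rise in Clec1a, where 0.479% of all windows were DMRs that rose and 0.296% DMRs that fell. In PM offspring 0 member windows were DMRs, against 0.263% of all windows that rose and 0.321% that fell. By adjusted p alone, limma called 45 member windows in Sham offspring and 72 in PM offspring.

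In Sham offspring 20 member windows rose (12.9%) and 25 fell (16.1%), where 13.3% of all windows rose and 22.3% fell. In PM offspring 17 rose (10.97%) and 55 fell (35.5%), where 9.26% of all windows rose and 34.8% fell. The share that fell was thus near the background in PM offspring and under it in Sham offspring. Without PM replicate 6 only 10 member windows rose in PM offspring (6.45%). The share of all windows without that library is not given here, so this drop is not read as particular to the lectins. The median difference over the 155 windows was -0.257 points in Sham and -1.13 in PM offspring, beside -0.414 and -1.03 points over all windows.

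When each library was first centred on its own median, 29 member windows rose (18.7%) and 22 fell (14.2%) in Sham offspring, where 18.3% of all windows rose and 17.8% fell. In PM offspring 29 rose (18.7%) and 26 fell (16.8%), where 18.9% and 18.7% of all windows did. The share of calls that were rises went from 44.4% to 56.9% in Sham and from 23.6% to 52.7% in PM offspring, and over all windows from 37.3% to 50.7% and from 21.02% to 50.3%. The calls of Clec1a window 2, Clec14a window 2, Clec16a window 32, Clec4a3 window 1, Clec5a window 1, Clec12a window 2, Clec4e window 2 and Clec10a window 3 held after centring in both kinds of offspring. In PM offspring centring ended the calls of Clec10a window 1, Clec2d, Clec2f, Clec2i, Clec3a, Clec4a1, Clec4b2, Clec4f window 3, Siglech and the Siglecg start, and in Sham offspring that of Clec4b2. Centring also added the call of a rise for the windows named at Clec3b, Clec16a and Clec18a in PM offspring and at Clec12b and Clec2e in Sham offspring.

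The calls of both kinds of offspring ran in the same direction. In all, 11 windows rose in both and 25 fell in both, and 0 went opposite ways. A further 9 passed the test in Sham offspring only and 36 in PM offspring only. The interaction, which tests that difference itself, however passed in 0 windows. Shares of all windows called in both or in a single kind of offspring are not given here. These counts are therefore not read as a trait of the lectin windows. The Sham and Sham-OVA libraries did not overlap in 7 member windows, where 8.58% of all windows were apart in this way. For PM and PM-OVA the number was 17, where 12% of all windows were apart.

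**Figure D1:**
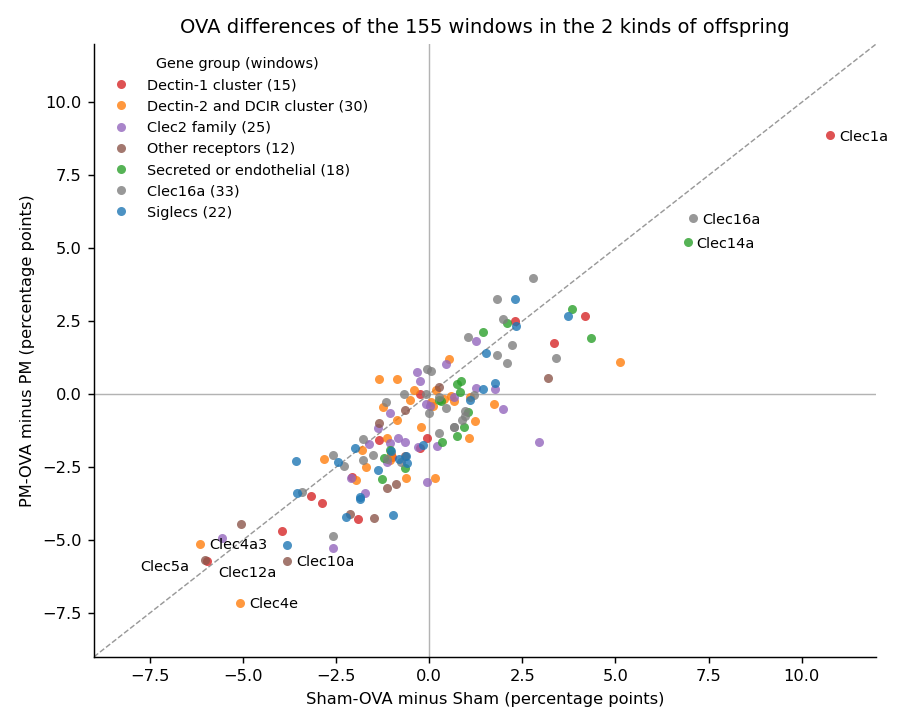
Difference with OVA in Sham offspring (x axis, percentage points) against that in PM offspring (y axis, percentage points) for the 155 windows, coloured by gene group, with the dashed line marking equal differences. Clec1a lies alone at the upper right (+10.8 and +8.87 points), Clec14a and Clec16a follow, and the windows of Clec4a3, Clec5a, Clec12a and Clec4e lie at the lower left.

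The largest rise of the family was in Clec1a, which encodes a receptor of endothelial and myeloid cells that binds fungal melanin. Its window 2 (chr6:129443428-129451115) held no exon of the gene and lay in an intron next to the window with the gene start. Sham libraries lay at 52.8 to 59.9% (median 54.9%) and Sham-OVA libraries at 63.5 to 69.8% (median 67.1%). PM libraries lay at 52.4 to 61.1% (median 55.2%) and PM-OVA libraries at 60.2 to 67.1% (median 65.1%). Sham-OVA lay wholly above Sham, while the lowest PM-OVA library fell just under the highest PM library. The rise was 10.8 points in Sham (log2 ratio 0.64 ± 0.08 SE, adjusted p = 7.61e-07) and 8.87 points in PM offspring (log2 ratio 0.53 ± 0.08, adjusted p = 5.34e-06). The neighbouring windows 1 and 3 of the gene differed by -0.257 and -0.237 points in Sham and by -1.85 and 0.00751 points in PM offspring, and none of these passed the test. Without Sham replicate 1 the rise of window 2 in Sham offspring was 10.4 points.

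The Dectin-1 cluster on chromosome 6 holds Clec12a, Clec12b, Clec1b, Clec9a, Clec1a and Clec7a in a row, and its 15 windows included rises and falls. By adjusted p, 3 rose (20%) and 5 fell (33.3%) in Sham offspring, and 4 rose (26.7%) and 7 fell (46.7%) in PM offspring. Beside these stand rises and falls of 13.3% and 22.3% of all windows in Sham and 9.26% and 34.8% in PM offspring. Clec12a, an inhibitory receptor of myeloid cells, fell most in its window 2 (chr6:129346966-129354206), which holds the RefSeq start printed above. Sham values were 75.7 to 81.2% (median 77.4%) and Sham-OVA values 70.1 to 78.2% (median 70.6%). PM values were 76.2 to 79.9% (median 78.4%) and PM-OVA values 71.4 to 73.9% (median 72.5%). The PM groups were fully apart, whereas a single Sham-OVA library, replicate 7, stayed within the Sham range. This window changed by -5.96 points in Sham (log2 ratio -0.44 ± 0.07, adjusted p = 3.99e-05) and by -5.71 points in PM offspring (-0.43 ± 0.07, adjusted p = 2.6e-05). The window at the GENCODE start of the same gene, further upstream, differed by -0.0493 and -1.52 points and did not pass.

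Dectin-1 itself (Clec7a), the receptor for fungal beta-glucan, fell in both of its windows. At its start window (chr6:129466543-129473376) Sham libraries had 67.4 to 71.6% (median 71.3%) and Sham-OVA libraries 63.4 to 68.99% (median 66.3%). PM libraries had 68.3 to 73.1% (median 70.9%) and PM-OVA libraries 63.4 to 70.03% (median 65.9%). The groups overlapped in both kinds of offspring although the means moved apart. The difference was -3.96 points (adjusted p = 0.00206) and -4.68 points (adjusted p = 0.000209), and window 1 changed by -3.17 and -3.50 points.

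Between these falls lay windows that rose. Clec1b, a receptor of platelets that binds podoplanin, rose at its start by 3.35 points in Sham (adjusted p = 0.000548) and 1.76 points in PM offspring (adjusted p = 0.0360). Its window 2, which also holds the RefSeq start of Clec9a, changed by -2.87 and -3.71 points. Clec9a marks cross-presenting dendritic cells and senses actin of dead cells. Its window 1, the nearest under its own name to its start, changed by -4.27 points in PM offspring (adjusted p = 0.000341) and gave -1.90 points in Sham offspring (adjusted p = 0.117). Its window 2, at the far end of the gene and overlapping Clec1a, rose by 4.17 and 2.68 points. The inhibitory receptor Clec12b rose at its start by 2.49 points in PM offspring (adjusted p = 0.0362) and gave 2.31 points in Sham offspring (adjusted p = 0.0749).

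**Figure D2:**
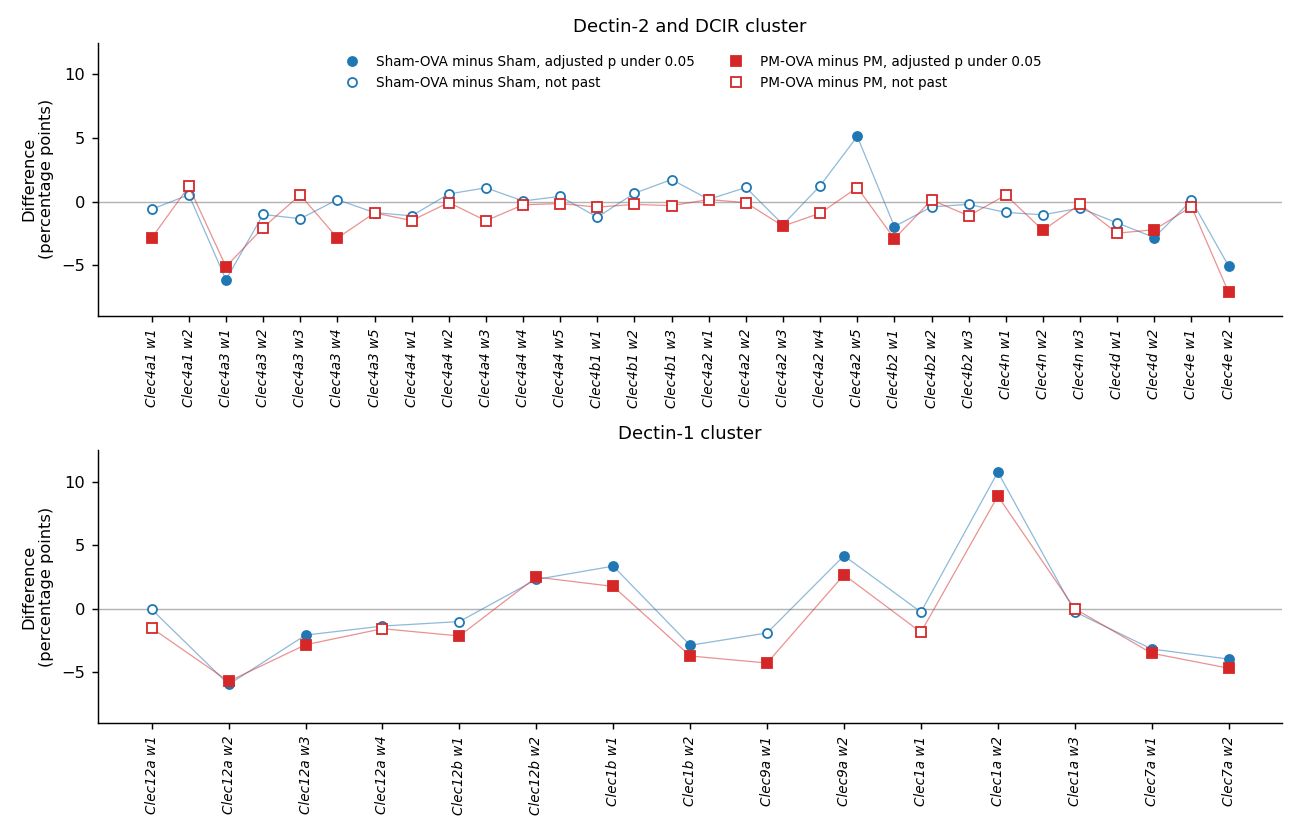
Difference with OVA (y axis, percentage points) for each window of the Dectin-2 and DCIR cluster (upper panel) and the Dectin-1 cluster (lower panel), in order along chromosome 6 at equal spacing; filled symbols passed the adjusted p of 0.05 and lines only join neighbours. In the lower panel the rise at Clec1a window 2 stands between 2 windows that did not pass the test, and in the upper panel the falls of 5 points or more sit at Clec4a3 window 1 and Clec4e window 2.

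The Dectin-2 and DCIR cluster, also on chromosome 6, holds 9 genes and 30 windows, and fewer of them passed the test than of all windows. Here 1 rose (3.33%) and 4 fell (13.3%) in Sham offspring, and 0 rose (0%) and 8 fell (26.7%) in PM offspring, against 13.3% and 22.3% of all windows in Sham and 9.26% and 34.8% in PM offspring. Their median difference was -0.466 and -0.666 points, beside -0.414 and -1.03 points over all windows. At the Mincle gene Clec4e the start window (chr6:123283051-123293533) had Sham values of 66.4 to 70.9% (median 70.1%) and Sham-OVA values of 61.3 to 66.97% (median 63.96%). PM values were 68.02 to 71.9% (median 68.7%) and PM-OVA values 58.6 to 65.1% (median 62.5%). All PM-OVA libraries lay under all PM libraries, and the Sham groups touched at their edges. The difference was -5.07 points in Sham (log2 ratio -0.32 ± 0.06, adjusted p = 0.000218) and -7.14 points in PM offspring (-0.45 ± 0.06, adjusted p = 1.43e-06). The difference between these falls gave an interaction p of 0.155 in limma before adjustment (adjusted p = 0.756). Window 1 of Clec4e differed by 0.0980 and -0.403 points and did not pass.

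Clec4a3, which encodes DCIR3, had the largest fall of the family in Sham offspring. Its start window (chr6:122952031-122956353) had Sham values of 73.9 to 78.6% (median 75.7%) and Sham-OVA values of 67.1 to 73.9% (median 69.6%). PM values were 71.01 to 76.6% (median 74.6%) and PM-OVA values 65.8 to 72.6% (median 70.1%). The ranges met at the extremes in both kinds of offspring. It changed by -6.15 points (adjusted p = 8.72e-05) and -5.12 points (adjusted p = 0.000406). Of the other 4 windows of Clec4a3, 0 passed in Sham and 1 passed in PM offspring (window 4, -2.87 points).

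Several other GENCODE starts of this cluster did not pass the test. Dectin-2 (Clec4n), a receptor for fungal mannan, differed at its start by -0.855 and 0.511 points, DCIR (Clec4a2) by 0.172 and 0.158 points, Clec4a4 by -1.12 and -1.49 points, Clec4b1 by -1.23 and -0.437 points, and Clec4d, the partner of Mincle, by -1.68 and -2.49 points, with 0 of these past the test. The RefSeq start of Clec4a2 lies in its window 3, which gave -1.81 points in Sham offspring (adjusted p = 0.0529) and changed by -1.93 points in PM offspring (adjusted p = 0.0299). The Clec4a1 start changed by -2.86 points in PM offspring (adjusted p = 0.00610) and gave -0.609 points in Sham offspring. Clec4b2 changed by -1.97 and -2.93 points (adjusted p = 0.0414 and 0.00204). Window 5 of Clec4a2, which is not at its start, rose by 5.12 points in Sham offspring (adjusted p = 0.00164) and gave 1.10 points in PM offspring (adjusted p = 0.468).

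**Figure D3:**
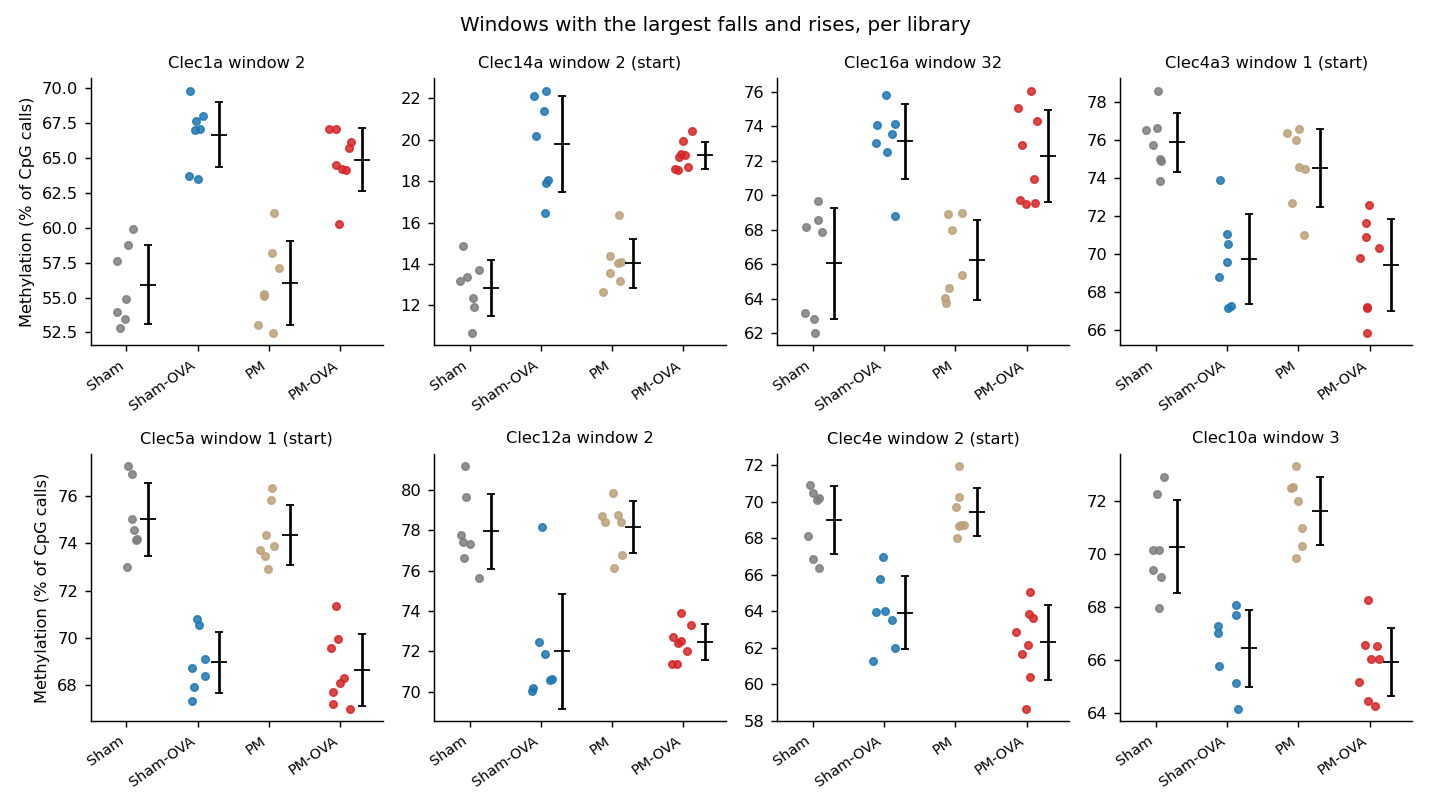
Percent methylation (y axis, not starting at 0 and scaled per panel) in each library of the 4 groups for the windows with the 3 largest rises or falls with OVA in either kind of offspring; points are libraries and black bars show the mean ± SD. The upper left panel shows Clec1a window 2 rising from means of 55.9% and 56.02% to 66.7% and 64.9%, and the panels of Clec5a and Clec4e show the falls at gene starts.

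Of the single receptors outside both clusters, Clec5a, Clec10a and Clec4g held falls of 5 points or more. Clec5a is an activating receptor of monocytes and neutrophils that pairs with the adaptor Tyrobp. Its only window (chr6:40582405-40592058) holds the gene start. Sham values were 72.98 to 77.3% (median 74.6%) and Sham-OVA values 67.4 to 70.8% (median 68.8%). PM values were 72.9 to 76.3% (median 73.9%) and PM-OVA values 67.01 to 71.4% (median 68.2%). Challenged and unchallenged libraries were fully apart in both kinds of offspring. The difference was -6.03 points (log2 ratio -0.42 ± 0.06, adjusted p = 1.56e-06) and -5.69 points (log2 ratio -0.39 ± 0.05, adjusted p = 1.7e-06).

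Clec10a, the galactose-type lectin of macrophages and dendritic cells, fell in all 4 of its windows in PM offspring. In window 3 (chr11:70165974-70169630) Sham values were 67.96 to 72.9% (median 70.1%) and Sham-OVA values 64.2 to 68.1% (median 67.01%). PM values were 69.8 to 73.3% (median 71.98%) and PM-OVA values 64.3 to 68.3% (median 66.1%). The PM groups did not overlap, while the Sham groups did slightly. This window changed by -3.82 points (adjusted p = 0.000628) and -5.70 points (adjusted p = 2.12e-06). In Sham offspring the other 3 windows of Clec10a gave -2.13, -1.12 and -1.48 points and did not pass. Clec4g, a receptor of liver endothelium, changed by -5.04 and -4.47 points in its window 2, which also overlaps Gm16553. The start of Clec4g gave -0.642 and -0.553 points and did not pass, and that of Clec4f changed by -2.11 points in PM offspring (adjusted p = 0.0475) and gave -0.654 points in Sham offspring. Together with Clec4f, the Kupffer cell receptor, these 4 genes had 12 windows, of which 1 rose (8.33%) and 3 fell (25%) in Sham offspring, and 0 rose (0%) and 8 fell (66.7%) in PM offspring. The falls of all windows, 22.3% and 34.8%, were near this share in Sham and under it in PM offspring. Their median difference, -1.23 and -3.14 points, was the lowest of the gene groups.

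Several Clec2 genes encode ligands for the NKR-P1 receptors of natural killer cells and lie next to those receptors on chromosome 6, whereas Clec2l lies far from them on the same chromosome. Of the 25 windows of the 9 Clec2 genes, 1 rose (4%) and 3 fell (12%) in Sham offspring, and 1 rose (4%) and 8 fell (32%) in PM offspring, all 4 shares being under those of all windows (13.3%, 22.3%, 9.26% and 34.8%). Among the windows named for Clec2 genes, the largest fall in Sham offspring was in window 5 of Clec2g (chr6:128961640-128977085). It changed by -5.56 and -4.93 points (adjusted p = 0.000142 and 0.000277) and also overlaps Gm15987, Mir7649 and Gm8778. Clec2d is the best known of these ligands. The window under its own name changed by -2.86 points in PM offspring (adjusted p = 0.0140) and gave -2.11 points in Sham offspring. The RefSeq start of Clec2d lies outside it, in a window named Gm26160. There the OVA difference was -0.432 for Sham (adjusted p = 0.674) and -1.09 for PM animals (adjusted p = 0.212), and neither passed. Clec2f changed at its start by -1.63 and -1.71 points (adjusted p = 0.0186 and 0.0120). The start windows of Clec2e, Clec2g, Clec2j and Clec2m and the window of Clec2h nearest to its start did not pass, with differences of -1.37 to 1.27 points in Sham and -2.9974 to 0.212 points in PM offspring. At the CpG-dense start of Clec2l (window 1, chr6:38663059-38663302) the unchallenged level was 0.970% and the differences were -0.0852 and -0.321 points. Its window 3, further into the gene, changed from an unchallenged level of 88.8% by -2.58 and -5.26 points.

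The strongest change at any lectin start stood under another name. The RefSeq start of Clec2i lies in a window that the table names BC035044 (chr6:128885363-128892783), an opposing gene whose start it also holds, so that this window is no member by name and was chosen after its values were seen. Sham values were 59.7 to 69.9% (median 66.4%) and Sham-OVA values 46.6 to 56.9% (median 48.9%). PM values were 61.5 to 66.5% (median 66.002%) and PM-OVA values 49.2 to 53.5% (median 51.8%). Both pairs of groups were fully apart. The difference was -14.6 points (log2 ratio -0.86 ± 0.09, adjusted p = 1.07e-07) and -13.3 points (-0.78 ± 0.09, adjusted p = 1.62e-07), a DMR in both. The next window, named Clec2i, changed by -2.33 points in PM offspring and gave -1.12 points in Sham offspring (adjusted p = 0.155). Counting all windows that overlap a member gene added 6 windows in total, under the names Olfr460, Gm44420, BC035044, Gm26160, Gm7238 and Aars, and of these only the BC035044 window passed the adjusted p.

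Among the genes for secreted or endothelial lectins, Clec14a, Clec11a and Clec3b rose at their starts in Sham offspring. Of the 18 windows of the 5 genes in this group, 5 rose (27.8%) and 0 fell (0%) in Sham offspring, and 4 rose (22.2%) and 4 fell (22.2%) in PM offspring, where all windows gave 13.3% and 22.3%, and 9.26% and 34.8%. Clec14a, a surface protein of endothelial cells, had the lowest level among the starts that moved. Its start window (chr12:58268354-58270827) had Sham values of 10.6 to 14.8% (median 13.2%) and Sham-OVA values of 16.5 to 22.4% (median 20.2%). PM values were 12.6 to 16.3% (median 14.05%) and PM-OVA values 18.6 to 20.4% (median 19.2%). No challenged library reached down to an unchallenged one in either kind of offspring. The rise was 6.94 points (log2 ratio 0.70 ± 0.08, adjusted p = 1.23e-07) and 5.21 points (0.52 ± 0.07, adjusted p = 3.47e-06), and on the log2 ratio scale the one in Sham offspring exceeded that of Clec1a.

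Clec11a, a secreted growth factor of bone and blood stem cells, rose at its start by 3.83 and 2.93 points (adjusted p = 0.00590 and 0.0219). Tetranectin (Clec3b), which binds plasminogen, rose at its start by 4.34 points in Sham offspring (adjusted p = 0.00300) and gave 1.93 points in PM offspring (adjusted p = 0.141), or 2.91 points with libraries centred (adjusted p = 0.00816). Cartilage lectin Clec3a went the other way and changed by -2.89 points in PM offspring. Clec18a had differences of 0.843 and 0.434 points at its start, and neither passed.

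Clec16a shares the name but is an endosomal protein of autophagy rather than a lectin receptor, and it alone filled 33 of the 155 windows. Of these, 6 rose (18.2%) and 5 fell (15.2%) in Sham offspring, and 5 rose (15.2%) and 7 fell (21.2%) in PM offspring. The shares of rises were above and those of falls below the shares of all windows (13.3% and 22.3% in Sham, 9.26% and 34.8% in PM offspring). Its start window gave -0.0473 and 0.860 points and did not pass. Its window 32 (chr16:10738374-10741862), near the far end of the gene and holding 373 exonic bases, was the second largest rise of the family. Sham values were 61.996 to 69.7% (median 67.9%) and Sham-OVA values 68.8 to 75.8% (median 73.5%). PM values were 63.8 to 68.97% (median 65.4%) and PM-OVA values 69.5 to 76.1% (median 71.9%). The PM groups were apart and the Sham groups overlapped slightly. It rose by 7.08 points (adjusted p = 0.000181) and 6.03 points (adjusted p = 0.000515). Without the Clec16a windows, 14 rose and 20 fell among 122 windows in Sham offspring, and 12 rose and 48 fell in PM offspring, with medians of -0.557 and -1.50 points.

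Of the 22 Siglec windows 3 rose (13.6%) and 5 fell (22.7%) in Sham offspring, and 3 rose (13.6%) and 13 fell (59.1%) in PM offspring. Of all windows 13.3% rose and 22.3% fell in Sham, and 9.26% rose and 34.8% fell in PM offspring. The interaction test called 0 of the Siglec windows. Sialoadhesin (Siglec1), a macrophage receptor that captures sialylated particles, fell at its start window (chr2:131085667-131090454). Sham values were 57.96 to 62.5% (median 60.8%) and Sham-OVA values 55.7 to 57.9% (median 56.1%). PM values were 58.1 to 61.8% (median 60.2%) and PM-OVA values 50.5 to 56.5% (median 55.3%). Both pairs of groups were apart. Methylation changed by -3.81 points (log2 ratio -0.22 ± 0.05, adjusted p = 0.00153) and -5.16 points (-0.30 ± 0.05, adjusted p = 3.16e-05).

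Siglecg, an inhibitory receptor of B cells, changed at its start by -3.54 and -3.40 points, and its windows 2 and 3 rose by 3.72 and 2.30 points in Sham and by 2.66 and 3.25 points in PM offspring. Siglece, an inhibitory receptor of neutrophils and macrophages, fell in all 3 windows in PM offspring, with -3.59 points at its start (adjusted p = 0.00305), where Sham offspring gave -1.86 points (adjusted p = 0.139). Siglech, a marker of plasmacytoid dendritic cells, changed at its start by -2.35 points in PM offspring, and the osteoclast receptor Siglec15 by -3.51 points. In Sham offspring these starts gave -0.600 and -1.85 points and did not pass.

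**Figure D4:**
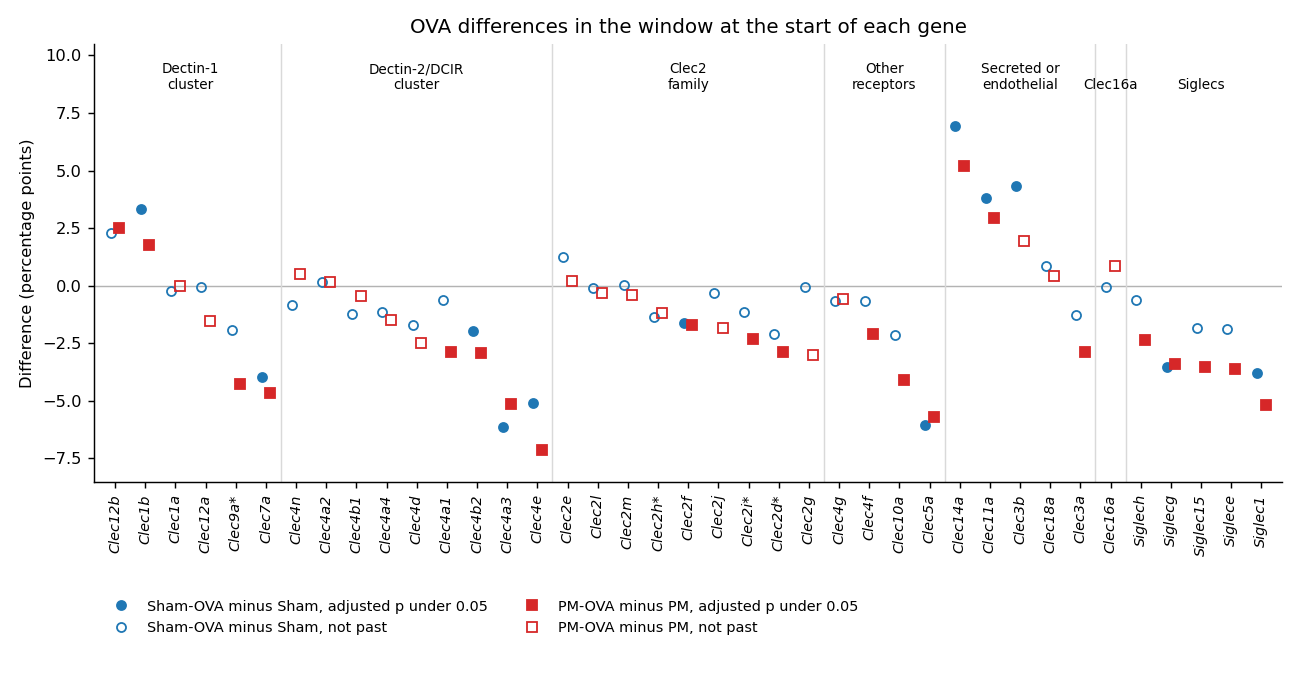
Difference with OVA (y axis, percentage points) in the window at the GENCODE start of each gene, or nearest to it where marked with an asterisk, for Sham (circles) and PM offspring (squares), grouped by role; filled symbols passed the adjusted p of 0.05. In Sham offspring the largest rises are at Clec14a, Clec3b and Clec11a and the largest falls at Clec4a3, Clec5a and Clec4e. In PM offspring the largest rises are at Clec14a, Clec11a and Clec12b and the largest falls at Clec4e, Clec5a and Siglec1.

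Gene starts were compared with the rest of each gene. Of the 35 windows with a GENCODE start, 4 rose (11.4%) and 8 fell (22.9%) in Sham offspring, and 4 rose (11.4%) and 15 fell (42.9%) in PM offspring. Of the 120 other windows 16 (13.3%) and 13 (10.8%) rose, and 17 (14.2%) and 40 (33.3%) fell. Among all tested windows that hold a gene start, 19.96% fell in Sham and 32.02% in PM offspring, and among those that hold none 22.8% and 35.4% fell. The rises were 10.6% and 7.38% of the former and 13.9% and 9.68% of the latter. Of the 118 windows at 70% or more, 9 rose (7.63%) and 22 fell (18.6%) in Sham offspring, and 9 rose (7.63%) and 48 fell (40.7%) in PM offspring, where 13.3% of all windows rose and 22.3% fell in Sham and 9.26% rose and 34.8% fell in PM offspring. The 9 windows under 20% held 4 rises in Sham and 2 in PM offspring and 0 falls, too few to read a share from.

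The second question was whether maternal PM changed these windows by itself. Limma called 0 member windows for PM against Sham without OVA (lowest adjusted p = 0.724), 0 for PM-OVA against Sham-OVA (lowest adjusted p = 0.816) and 0 for the interaction (lowest adjusted p = 0.582). At an unadjusted p under 0.05 there were 10, 12 and 10 member windows (6.45%, 7.74% and 6.45%), where 5.79%, 5.96% and 7.4% of all windows reached it.

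The smallest p without OVA, and the smallest for the interaction, fell on window 4 of Clec10a (chr11:70169631-70172814). Sham values were 78.04 to 81.6% (median 79.7%) and PM values 80.8 to 84.4% (median 82.2%). Sham-OVA values were 75.8 to 79.97% (median 77.9%) and PM-OVA values 76.1 to 79.997% (median 77.9%). The PM libraries were higher in mean than the Sham libraries with overlapping ranges, and the challenged groups covered nearly the same range. The difference of PM from Sham was 2.61 points (adjusted p = 0.724), and the OVA difference was -1.48 points in Sham and -4.23 in PM offspring (interaction -2.76 points, adjusted p = 0.582). With OVA the smallest p was in window 29 of Clec16a, where PM-OVA was 78.3% ± 0.836 (SD, n = 8) and Sham-OVA 79.9% ± 0.816 (SD, n = 7), a difference of -1.63 points (adjusted p = 0.816).

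Genes that carry the signal of these receptors held DMRs in both kinds of offspring. A list of 20 signalling genes had 310 windows, of which 87 rose and 94 fell in Sham and 63 rose and 100 fell in PM offspring by adjusted p. The rises were 28.1% and 20.3% of the windows, where 13.3% and 9.26% of all windows rose, and the falls were 30.3% and 32.3%, where 22.3% and 34.8% of all windows fell. DMRs numbered 1 rise and 9 falls in Sham and 1 rise and 8 falls in PM offspring, where 0.479% of all windows were DMRs that rose and 0.296% DMRs that fell in Sham, and 0.263% and 0.321% in PM offspring. A single rise in 310 windows is near that background. The phospholipase gene Plcg2 changed by -17.01 and -17.9 points in its window 10 (chr8:117525873-117529083), from 72.8% to 55.8% and from 72.9% to 55.03%. Another window of this gene, window 19, rose by 10.3 and 10.7 points. Syk, the kinase downstream of the activating lectins, changed by -15.95 and -14.4 points in its window 5 (adjusted p = 1.17e-08 and 1.85e-08). Tyrobp, the adaptor of Clec5a, changed by -14.03 and -9.47 points in window 2. The Src-family kinase Fgr changed by -13.6 and -13.3 points in window 1. On the inhibitory side, the phosphatase Ptpn6 changed by -12.1 and -8.76 points in window 5. These genes are used by many other receptors of blood cells.

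Genes that make or remove the sialic acid ligands of Siglecs were followed with a list. By adjusted p, its share of falls was near that of all windows in Sham (22.3%) and under it in PM offspring (34.8%). Its shares of rises were above those of all windows (13.3% and 9.26%). The list of 15 genes had 229 windows, of which 45 rose (19.7%) and 52 fell (22.7%) in Sham and 29 rose (12.7%) and 68 fell (29.7%) in PM offspring. DMRs numbered 2 rises and 4 falls in Sham and 2 rises and 6 falls in PM offspring. Of all windows, 0.479% were DMRs that rose and 0.296% DMRs that fell in Sham, and 0.263% and 0.321% in PM offspring. The DMRs that fell thus made up a larger share of the list than of all windows. St3gal6, a sialyltransferase, rose by 15.5 and 12.8 points in window 8 (chr16:58509361-58513488). St6gal1, which adds the ligand of B cell Siglecs, changed by -12.6 and -12.8 points in window 14. Cmah, which converts the acetyl to the glycolyl form of sialic acid, changed by -11.98 and -14.9 points in window 13.

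**Figure D5:**
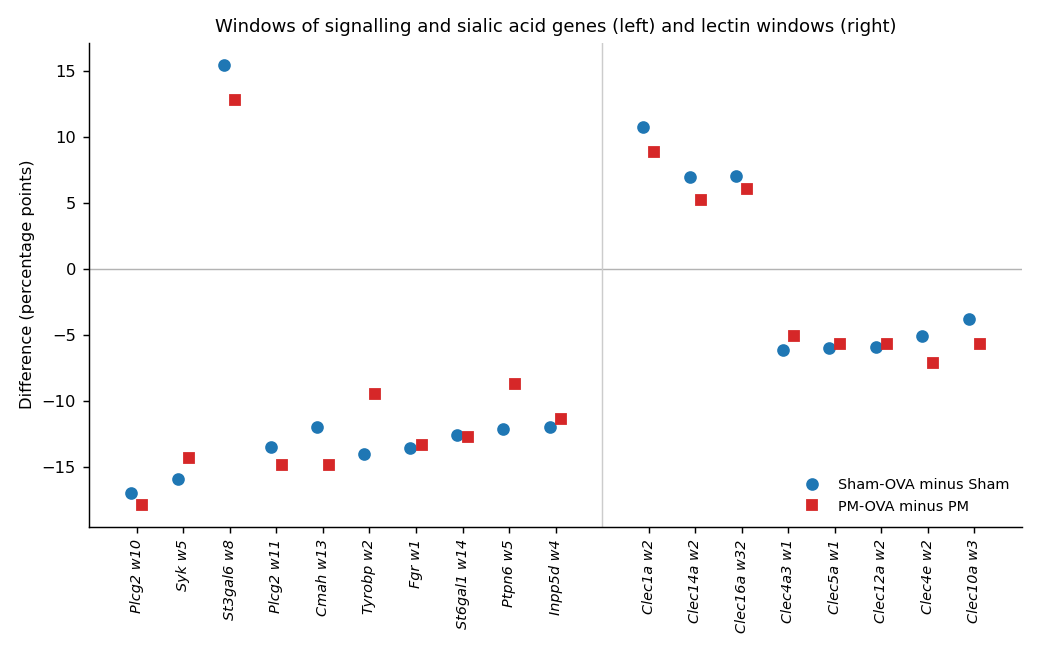
Difference with OVA (y axis, percentage points) in Sham (circles) and PM offspring (squares) for the 10 windows with the largest differences among DMRs of the signalling and sialic acid lists (left) and for the lectin windows of the per-library plot (right); w is the window number. The plotted windows of Plcg2, Syk and Fgr fell by more than 13 points in both kinds of offspring, and of the lectin windows on the right only Clec1a reached 10 points.

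Windows of cell type marker genes were counted beside the lectin windows, and their shares are to be read against the 13.3% of all windows that rose and 22.3% that fell in Sham and the 9.26% and 34.8% in PM offspring. Windows of 6 eosinophil genes (Epx, Prg2, Prg3, Ccr3, Il5ra and Ear6) fell in 9 of 16 cases in Sham and 11 of 16 in PM offspring with 0 rises, and their median difference was -4.62 and -4.40 points. Averaged over the 16 windows, Sham libraries had 67.8 to 69.98% and Sham-OVA libraries 64.3 to 67.1%, while PM libraries had 68.7 to 71.04% and PM-OVA libraries 64.1 to 66.1%. The 16 windows of 7 neutrophil genes fell in 8 cases (50%) and 9 cases (56.2%) with 0 rises. Of 197 windows of natural killer and innate lymphoid genes, 12 rose (6.09%) and 80 fell (40.6%) in Sham, and 8 rose (4.06%) and 117 fell (59.4%) in PM offspring. Of 66 windows of macrophage and monocyte genes, 9 rose (13.6%) and 22 fell (33.3%) in Sham, and 6 rose (9.09%) and 30 fell (45.5%) in PM offspring. Of 149 windows of dendritic cell genes, 41 rose (27.5%) and 30 fell (20.1%) in Sham, and 29 rose (19.5%) and 40 fell (26.8%) in PM offspring. Of 80 windows of T cell genes, 12 rose (15%) and 26 fell (32.5%) in Sham, and 7 rose (8.75%) and 30 fell (37.5%) in PM offspring. Of 150 windows of B cell genes, 34 rose (22.7%) and 35 fell (23.3%) in Sham, and 24 rose (16%) and 44 fell (29.3%) in PM offspring.

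Of 50 windows of epithelial genes, 16 rose (32%) and 4 fell (8%) in Sham, and 9 rose (18%) and 6 fell (12%) in PM offspring. Of 129 windows of endothelial genes, 42 rose (32.6%) and 21 fell (16.3%) in Sham, and 36 rose (27.9%) and 42 fell (32.6%) in PM offspring. Of 70 windows of fibroblast and smooth muscle genes, 16 rose (22.9%) and 23 fell (32.9%) in Sham, and 10 rose (14.3%) and 29 fell (41.4%) in PM offspring. The part of a changed cell make-up in the lectin values was not tested.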

How the data were processed

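According to the methods and per the labels, the authors converted lung DNA enzymatically with a lambda spike-in, trimmed reads with Trim Galore, aligned and called methylation on GRCm38 with DRAGEN, and summarised windows of 100 CpG cytosines in SeqMonk. The deposited value is a percent methylation per window and library, with no read counts or coverage, so the depth of a value is unknown and precision rests on the 29 libraries.

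Members were matched by gene name. An offset of 1 was added to the methylated and to the unmethylated percentage, and the log2 of their quotient was fitted for all windows with at least 3 values per group using limma (version 3.58.1, R 4.3.3) with the 4 groups and Benjamini-Hochberg adjustment, 2-sided. The code was tested on simulated data. Replicate numbers, taken from the sample titles, did not pair libraries: deviations from group means correlated at a median of 0.017 for the 42 same-number pairs, of which 3 exceeded 0.1. By the differing numbers in the library names the median was 0.0246 for 36 pairs, of which 2 exceeded 0.1. Positions are from the file, annotation from GENCODE M21 and sequences from RefSeq (Python 3.11.15, pysam 0.24.0). Text names every member DMR, each gene's start window, the smallest p of the other contrasts, and DMRs of the signalling lists (at most 10, by size); other windows named were chosen after their values were seen. Members, lists and rules were chosen with earlier results of these data known. Alternatives covered scale, offset, filter, centring, prior, groups fitted, block, thresholds, membership and left-out libraries. Some windows under this rule are not reported here.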

Additional observations from a re-analysis of the deposited data

Results flagged for a closer look

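Among 46 named windows in the 4 groups, 9 of 184 group values held a library far from the rest of its group, and chance alone flags about 1 in 20. Sham-OVA replicate 7 was high in 3 windows, at 78.2% in Clec12a window 2 (the others 70.1 to 72.5%), 17.3% in Clec16a window 1 (13.8 to 15.1%) and 66.3% in Clec2m window 2 (63.6 to 64.5%). Without it Clec12a window 2 fell by 6.98 points in Sham offspring. In Clec1a window 2, PM-OVA replicate 6 was low at 60.2% (64.1 to 67.1%). PM replicate 1 was high in Clec18a window 8 at 61.9% (55.5 to 56.8%). In Clec3b window 1 Sham replicate 5 stood at 68.9% (62.4 to 64.5%), and in Clec4f window 3 Sham replicate 2 stood at 75.4% (70.7 to 72.3%). PM-OVA replicate 3 had 78.5% in Clec9a window 1 (73.6 to 75.5%), and Sham replicate 7 had 68.9% in Siglecg window 1 (72.6 to 74.3%).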

How the results depend on the processing

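The count of member DMRs was 1 in Sham and 0 in PM offspring under every scale, offset, filter, prior, block and left-out library. It became 2 and 1 when all windows overlapping a member gene were counted, 10 in both with a minimum difference of 5 points, and 0 in Sham with 15 points. Windows past the adjusted p (45 and 72) became 2 and 0 at an adjusted p under 1e-06, and otherwise ranged from 34 to 51 and from 55 to 73 under the other planned settings and without Clec16a, a setting chosen after seeing the data. Leaving out each library gave 38 to 48 in Sham and 62 to 73 in PM offspring, always 1 DMR in Sham, and 0 in every other contrast. The member windows that rose in PM offspring went from 17 to 10 without PM replicate 6. The replicate block gave 44 and 69 windows with 1 and 0 DMRs.

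Of 95 named differences 45 passed the adjusted p. Of these 45, 15 lost it under at least 1 alternative and 0 reversed in sign, and 12 of the others gained it. Reversals were counted only among differences that passed, and some of the others did change sign. With single libraries left out, Clec2g window 1 in Sham offspring ranged from -1.40 to 2.32 points. After centring, 11 lost it, among them Siglecg window 1 in PM offspring (-2.42 points, adjusted p = 0.0642) and Clec10a window 1 in PM offspring (-3.12 points, adjusted p = 0.0580). Centring also brought 5 rises past the threshold, Clec3b window 1 (2.91 points, adjusted p = 0.00816), Clec16a window 1 (1.84 points, 0.00463) and Clec18a window 8 (1.41 points, 0.0486) in PM offspring and Clec12b window 2 (2.70 points, 0.0172) and Clec2e window 2 (1.66 points, 0.0314) in Sham offspring. With the replicate block Clec1b window 1 (1.67 points, adjusted p = 0.0746) and Clec4f window 3 (-1.97 points, adjusted p = 0.0760) lost it in PM offspring and Siglec15 window 7 gained it in Sham offspring (-1.85 points, adjusted p = 0.0475). Calls that ended when 1 library was left out were those of Clec11a window 3 in PM offspring (3 libraries), Clec12b window 2 in PM offspring (8 libraries), Clec1b window 1 in PM offspring (9 libraries), Clec2f window 1 in Sham offspring (2 libraries), Clec4b2 window 1 in Sham offspring (6 libraries) and Clec4f window 3 in PM offspring (18 libraries). Clec9a window 1 passed in Sham offspring without Sham-OVA replicate 7 (-2.76 points, adjusted p = 0.00514). Depth limits cannot be stated, since coverage is not in the table used here.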

Other observations

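Lectin receptor genes whose names begin otherwise, further Siglecs such as Cd22 and Cd33 among them, were followed with a list of 27 genes and 178 windows. Of these windows 26 rose (14.6%) and 55 fell (30.9%) in Sham offspring, and 18 rose (10.1%) and 82 fell (46.1%) in PM offspring, against 13.3% and 22.3% of all windows in Sham and 9.26% and 34.8% in PM offspring, with medians of -0.953 and -1.64 points. The dendritic cell receptor Ly75 moved both ways, with a difference of -10.1 and -10.9 points in window 9 and a rise of 10.6 and 10.8 points in window 16. Thrombomodulin (Thbd), an endothelial protein that is close to Clec14a in fold, rose by 10.3 and 9.15 points in window 1.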
